A study of Mus musculus with 5 samples.

Results

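A set of 5 transcription factors linked to lipid synthesis in the liver were followed through a fast in mouse hepatocytes: Srebf1, Mlxipl, Nr1h3, Usf1 and Rxra. They were taken by gene symbol and make up 5 of the 64 genes of a capture panel, and all 5 were detected in every library. The data were UMI counts (1 UMI stands for 1 captured RNA molecule) of single hepatocytes, sequenced after capture of the panel's transcripts, from livers of male wild-type C57BL/6J mice on normal chow (lab diet #5053), with 1 library for each of 5 time points. All mice had 3 days of training with 16 h without food and 8 h with food, and had chow with 20% sucrose water on the day of the experiment. The fed library (0 h) was taken after 4 h of feeding, at clock hour 13, and the fasted libraries after 8, 16, 24 and 30 h without food or sucrose, at clock hours 21, 5, 13 and 19. Values given as a run of 5 are in that time order, the fed library first, and a run of 4 covers the fasted libraries. Hours of fasting and clock hour therefore changed together, except that 0 h and 24 h share a clock hour. The number of mice behind each library is not given in the sources used here, and with 1 library a time no difference has a replicate check: no test was made, and every interval below is a 95% interval that covers counting error only.

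Srebf1 encodes SREBP-1, a membrane-bound precursor whose cleaved form enters the nucleus and switches on the genes of fatty acid synthesis. In liver its SREBP-1c form is raised by insulin after a meal. Mlxipl encodes ChREBP, which does a similar job in response to glucose metabolites. Nr1h3 encodes LXRα, a nuclear receptor for oxysterols, and Rxra encodes RXRα, the partner with which LXRα and many other nuclear receptors bind DNA. Usf1 encodes a helix-loop-helix protein that binds E-boxes, among them one in the promoter of fatty acid synthase. LXR with RXR binds the SREBP-1c promoter, so part of the set is known to act on another part of it. All of this regulation includes steps after transcription (cleavage, transport into the nucleus, ligand binding) that mRNA counts do not show.

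The promoter stretches of Srebf1 and Mlxipl are shown because these were the only members whose level differed over 2-fold between the fed and a fasted library. Each is the 250 bases before a transcription start in RefSeq on the build GRCm38.p6, 5′ to 3′ on the gene's own strand, with the motifs searched in capitals. The Srebf1 stretch, chr11:60210472-60210721 on the minus strand, lies before the most downstream of its 3 RefSeq starts and holds 2 copies of AGTAACCCC, 1 CCAAT box (read here as ATTGG) and 1 TCACCC, the core of a sterol element. The Mlxipl stretch, chr5:135089640-135089889 on the plus strand, lies before the more upstream of its 2 starts and holds 1 E-box, CACGTG, and 1 CCAAT box, again as ATTGG.
Srebf1: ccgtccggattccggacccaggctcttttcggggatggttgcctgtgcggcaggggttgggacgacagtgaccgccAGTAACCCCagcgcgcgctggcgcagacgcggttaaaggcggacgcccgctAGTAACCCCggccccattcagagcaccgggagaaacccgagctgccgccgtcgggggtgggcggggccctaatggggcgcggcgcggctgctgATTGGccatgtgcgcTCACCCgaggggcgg
Mlxipl: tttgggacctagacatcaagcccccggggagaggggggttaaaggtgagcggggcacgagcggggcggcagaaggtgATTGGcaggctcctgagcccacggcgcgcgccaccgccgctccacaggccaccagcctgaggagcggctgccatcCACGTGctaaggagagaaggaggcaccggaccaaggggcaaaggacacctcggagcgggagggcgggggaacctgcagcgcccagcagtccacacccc
Counting back from the start as position -1, the Srebf1 copies of AGTAACCCC lie at -174 to -166 and -123 to -115, the CCAAT box at -30 to -26 and TCACCC at -15 to -10. The Mlxipl E-box lies at -98 to -93 and its CCAAT box at -173 to -169. AGTAACCCC is the downstream end of the known LXR elements of this promoter, and its letters were chosen after the sequence had been seen. Of 32851 RefSeq windows of the same length, 0.122% held AGTAACCCC, 6.02% CACGTG, 33.8% CCAAT and 13.8% TCACCC, on either strand. The other motif searched, the nuclear receptor half-site AGGTCA, occurs in 14.0% of windows and in neither stretch printed above. For each gene the stretch printed is the window with the most matches. Of the other Srebf1 windows, chr11:60222582-60222831 held 1 CCAAT box and chr11:60220628-60220877 held no match. The other Mlxipl window, chr5:135106641-135106890, held none. No match overlapped another, and a match is a description of letters, not a shown binding site. UMIs counted at the 3' end of a transcript do not tell which start it came from, so the SREBP-1a and SREBP-1c forms, or the ChREBP forms, were counted together.

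On GRCm38 (mm10 in the submitters' processing notes) with GENCODE M21, Srebf1 spans chr11:60199089-60222581 on the minus strand and Mlxipl chr5:135089890-135138382 on the plus strand. Nr1h3 lies at chr2:91184061-91202834 on the minus strand and Rxra at chr2:27676440-27762957 on the plus strand. Usf1 lies at chr1:171411313-171419142 on the plus strand, and its 3′ end overlaps exons of Tstd1 on the same strand, so UMIs there could belong to either gene and the Usf1 values are uncertain to that degree. Exons of Srebf1 overlap Rai1 on the opposite strand and those of Mlxipl overlap Gm43500. Whether the counting used strand is not given in the sources used here. Exons of Srebf1 also overlap Mir6922 and those of Nr1h3 overlap Gm13783, both on the same strand, while no other gene's exons overlapped those of Rxra.

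The 5 libraries held 7208 to 12153 barcodes and 3979629 to 11288725 panel UMIs, 47473 barcodes in all, and 238 barcode sequences (0.504%) occurred in 2 libraries. The 8 h library was the shallow one, with a median of 219 UMIs a barcode against 651 to 1202.5 in the others. Alb, the albumin gene and the hepatocyte marker of the panel, took 69.4% to 71.8% of the UMIs in every library. Levels below are CPM, UMIs per 1000000 panel UMIs of the library, and so are largely ratios to Alb. Because capture can differ from gene to gene, levels are compared between times and not between genes. Of 12 markers listed for other liver cells, 6 were on the panel (Cdh5, Mrc1, Cd68, Ptprc, Pdgfra and Pdgfrb) and none was at 0 in any library. Summed, they stood at 76.2, 220, 34.4, 43.2 and 29.7 CPM in time order.

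Across the fast the factors parted into 3 patterns. Srebf1 was lower in every fasted library, by 7.49-fold at the least. Mlxipl was lower step by step and passed 2-fold from 16 h on. Nr1h3 and Rxra stayed within 0.5 of the fed library on the log2 scale at all 4 fasted times, while Usf1 met neither description. At 8 h, 1 of the 5 was over 2-fold lower than at 0 h, beside 7 of 56 panel genes tested (12.5%). At 16, 24 and 30 h it was 2 of the 5, beside 16 genes (28.6%), 13 genes (23.2%) and 15 genes (26.8%). No factor was over 2-fold higher at any time, beside 17.9%, 10.7%, 8.93% and 16.1% of the panel genes at the 4 times. All 4 comparisons share the 0 h library. The median log2 ratio over the panel lay between -0.15 and 0.05 at the 4 times.

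Srebf1, the precursor of the fatty acid synthesis switch, stood at 4538 CPM in the fed library (34264 UMIs). In the fasted libraries it was 167, 606, 300.3 and 237 CPM, the first of these from 663 UMIs. The fed library lay far above all 4 fasted ones, and the lowest value came first, at 8 h. On the log2 scale the 8 h level was -4.77 against 0 h (-4.88 to -4.66), 27.2-fold lower. The ratios at 16, 24 and 30 h were -2.90 (-2.95 to -2.86), -3.92 (-3.97 to -3.86) and -4.26 (-4.31 to -4.20). Between 8 and 16 h the level was 3.64-fold higher, a log2 difference of 1.86 (1.74 to 1.98), and between 16 and 24 h it was 2.02-fold lower again. At the matched clock hour, 0 h against 24 h, the level was 15.1-fold lower. The 4 fasted levels, in order 8, 30, 24 and 16 h, had Poisson intervals that did not overlap (154 to 180, 228 to 246, 290 to 311 and 587 to 626 CPM).

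Mlxipl, the glucose-responsive factor, stood at 2026, 1605, 881, 657 and 619 CPM from the fed library to the last. Each library lay below the one before it. The log2 ratio to 0 h was -0.34 (-0.38 to -0.29), -1.20 (-1.25 to -1.16), -1.62 (-1.67 to -1.58) and -1.71 (-1.75 to -1.67). The largest step was between 8 and 16 h, at -0.87 (-0.92 to -0.81), and the smallest between 24 and 30 h, at -0.09 (-0.14 to -0.04). Its lowest library was thus the last, where that of Srebf1 was the first after food was removed. At 8 h, with Srebf1 at 3.67% of its fed level, Mlxipl was at 79.3%.

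**Figure D1:**
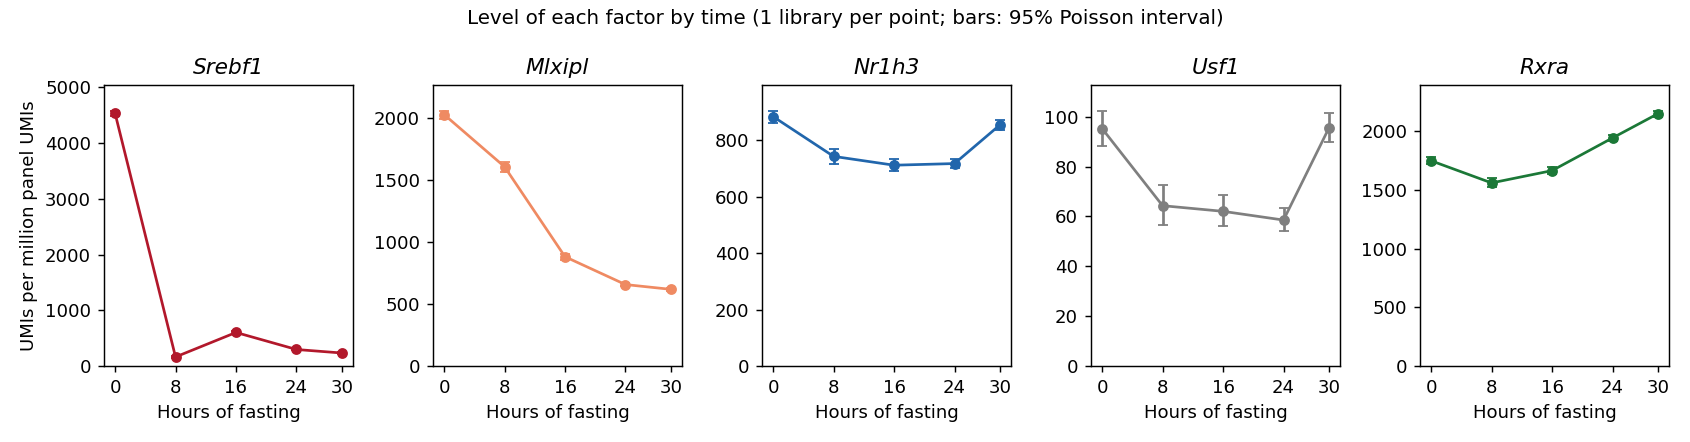
Level of each factor (UMIs per 1000000 panel UMIs, linear axis from 0) against hours of fasting, 1 library a point, bars showing the 95% Poisson interval. Srebf1 drops from 4538 to 167 by 8 h and is 606 at 16 h, Mlxipl declines through 619 at 30 h, and the other 3 factors stay between 61.5% and 123% of their fed level.

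Nr1h3, the oxysterol receptor LXRα, stood at 885, 744, 712, 718 and 855 CPM in time order. The 3 middle libraries lay together, with overlapping Poisson intervals, and the fed and 30 h libraries lay above them. Its log2 ratios to 0 h were -0.25, -0.31, -0.30 and -0.05. The step from 24 to 30 h was 0.25 (0.21 to 0.30). Rxra, its DNA-binding partner, stood at 1745, 1557, 1662, 1939 and 2145 CPM. Its lowest library was 8 h and its highest 30 h, with log2 ratios to 0 h of -0.16, -0.07, 0.15 and 0.30. Being within 0.5 in all 4 fasted libraries was met by 11 of the 52 panel genes that had 100 or more UMIs in each library (21.2%), beside 2 of the 5 factors. Nr1h4, which encodes the bile acid receptor FXR, was another. So was Alb, whose ratio is held near 0 by its share of the CPM denominator. Counting intervals of the Rxra and Nr1h3 ratios excluded 0 at every fasted time, the one nearest to it being Nr1h3 at 30 h (-0.09 to -0.004), so level here means within the tolerance and not equal.

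Usf1, the E-box factor, was the member with fewest UMIs, 256 to 1077 a library. It stood at 95.2, 64.3, 62.1, 58.6 and 95.4 CPM. The 8, 16 and 24 h libraries did not differ beyond their counting intervals, and neither did 0 h and 30 h, so the values form a lower middle group between 2 like ends. The log2 ratios to 0 h were -0.57 (-0.78 to -0.36), -0.62 (-0.80 to -0.44), -0.70 (-0.86 to -0.54) and 0.00 (-0.13 to 0.14). The 8 h value was the least steady of them: over the alternatives that keep CPM-like scaling it ran from -1.09, with every barcode thinned to 200 UMIs, to -0.11, as a mean over barcodes. The 24 to 30 h step, 0.70 (0.56 to 0.85), was the largest upward step of Usf1.

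Set against Rxra in the same library, which removes the panel total and Alb from the measure, Srebf1 and Mlxipl were again lower in every fasted library. Srebf1 gave 260.0 UMIs per 100 Rxra UMIs in the fed library and 10.7, 36.5, 15.5 and 11.1 in the fasted ones. Mlxipl gave 116, 103, 53.0, 33.9 and 28.8. Nr1h3 gave 50.7, 47.8, 42.9, 37.0 and 39.9, and Usf1 gave 5.46, 4.13, 3.73, 3.02 and 4.45. The 8 and 30 h values of Srebf1, apart in CPM, were close on this measure, and the fed and 30 h values of Usf1, alike in CPM, were apart. Relative to its partner, Nr1h3 was thus lower in each library up to 24 h, where its own CPM was nearly the same from 8 to 24 h and that of Rxra was higher.

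**Figure D2:**
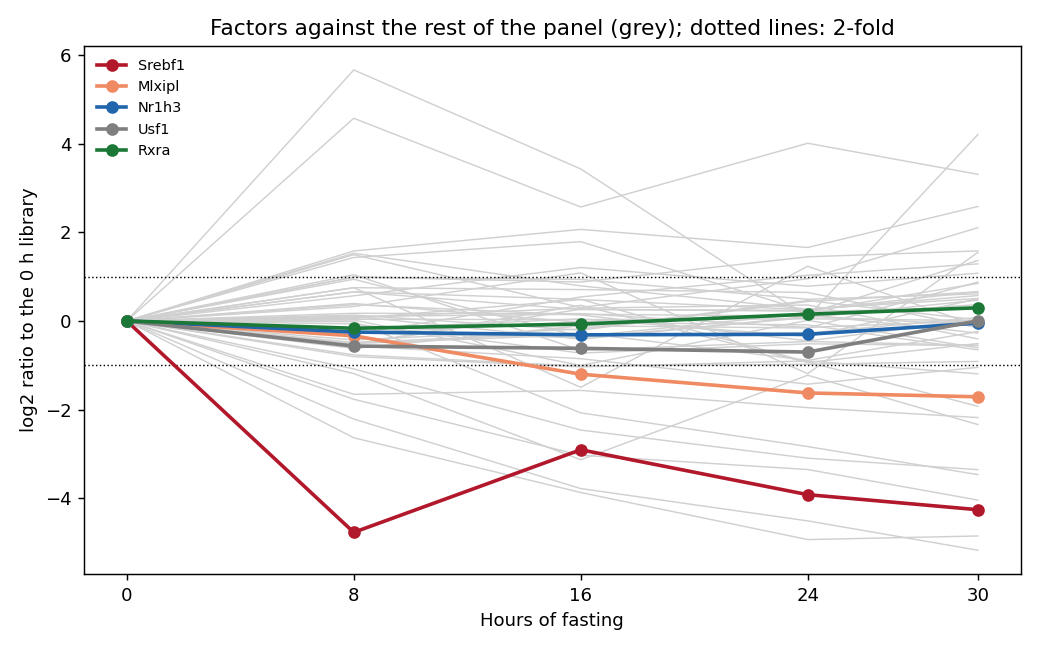
Log2 ratio of each gene's CPM to the 0 h library against hours of fasting, the 5 factors in colour, other panel genes in grey, dotted lines at 2-fold. Srebf1 has the lowest value of the panel at 8 h (-4.77), Mlxipl crosses the 2-fold line between 8 and 16 h, and Nr1h3, Usf1 and Rxra stay between the lines.

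The enzymes that SREBP-1 and ChREBP are known to act on can be set beside the factors. Of 12 listed genes of fatty acid synthesis, 6 were on the panel, and 4 of these were over 2-fold lower than 0 h at every fasted time: Acly and Acaca, which make acetyl-CoA and malonyl-CoA, Fasn, the synthase itself, and the elongase Elovl6. The list's median log2 ratio was -1.42, -2.74, -3.22 and -3.70 over the fast, beside panel medians of 0.05, -0.15, -0.12 and -0.07. Fasn gave -2.64, -3.87, -4.93 and -4.85 and Elovl6 gave -2.21, -3.78, -4.51 and -5.17. In contrast to Srebf1, whose 8 h value was below that at 16 h, all 4 genes were lower at 16 h than at 8 h. The desaturase Scd1 was within 0.5 of 0 h throughout, from -0.40 to 0.36, and the elongase Elovl5 was higher by 1.53 at 8 h and by 0.27 to 0.79 later.

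Of 5 listed genes of triglyceride synthesis, 3 were on the panel. Gpam, which adds the first acyl chain to glycerol phosphate, was over 2-fold lower at all 4 times, from -1.57 to -2.18. Dgat2, which adds the last, passed 2-fold at 16 h (-1.04) and 30 h (-1.19), and its relative Dgat1 stayed within 0.5. From the list of the carbohydrate response, Pklr, the liver pyruvate kinase and a textbook ChREBP target, was at -0.02, -2.07, -2.83 and -3.47, so that, as with Mlxipl, its 8 h library lay nearer the fed one than any later library did. G6pc, which encodes the glucose-6-phosphatase of gluconeogenesis, was 0.49 to 0.98 higher.

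**Figure D3:**
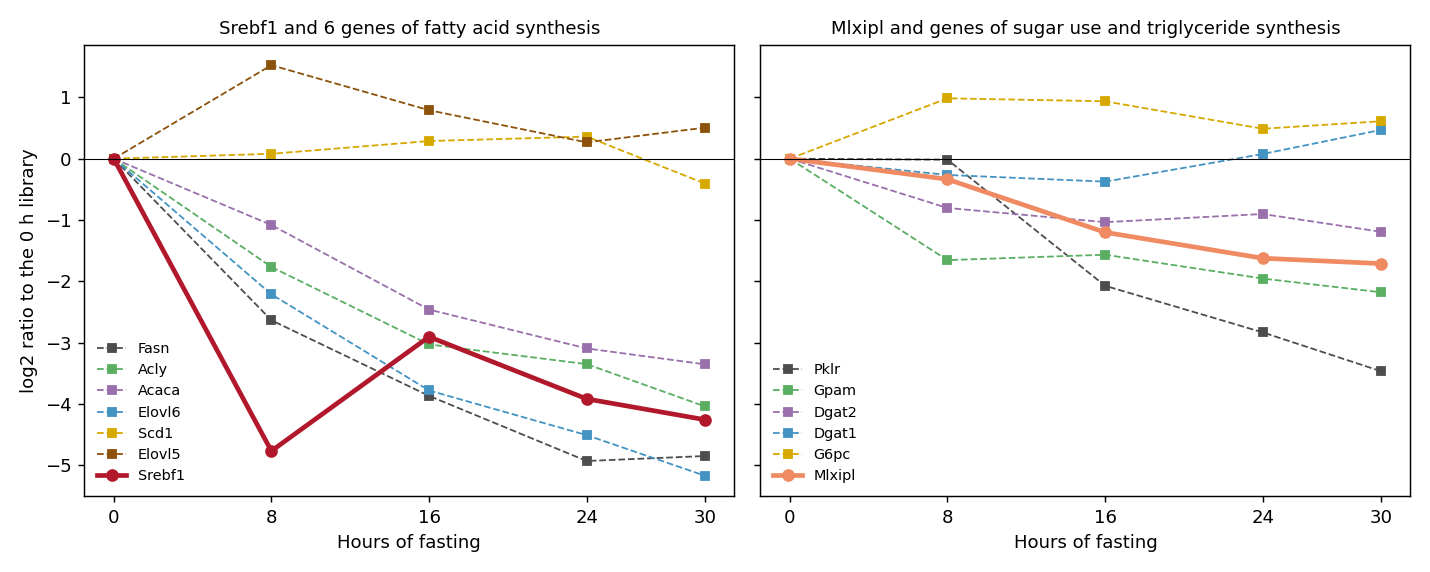
Log2 ratio of CPM to the 0 h library against hours of fasting for Srebf1 with 6 genes of fatty acid synthesis (left) and for Mlxipl with genes of sugar use and triglyceride synthesis (right). Srebf1 is lowest at 8 h (-4.77), where Fasn is at -2.64, and Pklr runs from -0.02 there to -3.47 in the last library.

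Of 17 listed partners and related regulators, 2 were on the panel. Nr1h4 was level, from -0.09 to 0.15, and Nr0b2, which encodes the repressor SHP, was over 2-fold higher at 16 h (1.20) and 30 h (1.08). Of 7 listed LXR targets outside lipogenesis only Cyp7a1, the rate-limiting enzyme of bile acid synthesis, was on the panel, and it had no single direction, with ratios of 0.75, -1.50, 1.23 and -0.11. Nr1h3 itself was at -0.31 to -0.25 at the first 3 of these times. Of the other elongases, all 4 of 4 were on the panel and 3 had enough UMIs. Elovl3 was the one past 2-fold upward, with 5.66, 3.43, 0.09 and 4.21, and Elovl1 was past it downward at 16 h (-1.02). Of 4 listed genes known to rise in fasting, 3, 2, 2 and 3 were over 2-fold higher at the 4 times. Pck1 of gluconeogenesis was higher by 1.58 to 2.58, Igfbp1 by 2.57 to 4.57, and Sds, which breaks down serine, by 0.30 to 2.10, while G6pc did not reach 2-fold.

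Likeness of pattern was measured as the root mean square difference of the log2 ratios to 0 h over the 4 fasted libraries, among the 47 other genes that had 100 or more UMIs in each library. The nearest to Srebf1 were Fasn (1.31), Elovl6 (1.46) and Acly (1.53), all of fatty acid synthesis, each at a distance over 1. The nearest to Mlxipl were Actb (0.40), Dgat2 (0.51) and Elovl1 (0.56). The nearest to Nr1h3 were Slc27a5 (0.15), Alb (0.29) and Fads1 (0.29), to Rxra Dgat1 (0.19), Alb (0.19) and Akr1d1 (0.22), and to Usf1 Cyp2f2 (0.24), Slc27a5 (0.27) and Hamp2 (0.39). Alb makes up most of the CPM denominator, which holds its own ratio near 0, so its nearness says only that a factor's ratios were small.

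Hepatocytes differ along the liver lobule, from the portal vein, where oxygen-rich blood enters, to the central vein. Cyp2f2 marks the portal side and Cyp2e1 the central side, and fatty acid synthesis is classically placed on the central side. In each library the barcodes with at least 10 UMIs of this pair were ranked by their Cyp2e1 to Cyp2f2 ratio and cut into 5 equal bins, from the Cyp2f2 end (bin 1) to the Cyp2e1 end (bin 5). Left out were 7.37%, 57.9%, 17.5%, 4.90% and 3.60% of barcodes, in time order, so the 8 h axis describes the deeper barcodes of that library. Glul and Gulo, central-side markers kept off the axis, were higher in bin 5 in all 5 libraries. Their log2 ratios were 1.64 to 3.82 and 4.05 to 4.92. Hsd17b13 and Alb of the portal side were lower there in all 5. Cyp27a1 and Cyp7a1 were also listed for the central side, and their zone values are not given here. Alb took 72.8% of UMIs in bin 1 and 52.9% in bin 5 at 0 h, and was lower in bin 5 in the other libraries too, so a gene with no gradient of its own is pushed up in CPM toward bin 5. The axis gene Cyp2e1 works the other way once Alb is left out, since it then took 0.102% of the remaining UMIs in bin 1 and 15.5% in bin 5 at 0 h, and up to 35.1% in bin 5 at 30 h. The end-to-end ratio, bin 5 over bin 1, is therefore given with 3 denominators: all panel UMIs (CPM), UMIs other than Alb, and UMIs other than Alb and the axis pair. Beside it stand the panel medians, which were 0.67, 0.71, 0.91, 0.76 and 0.55 in CPM, -0.12, -0.18, -0.14, -0.30 and -0.46 without Alb, and 0.03, -0.01, 0.14, 0.06 and 0.04 without Alb and the pair.

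Srebf1 leaned toward the Cyp2f2 end compared with the panel. In bin 1 it stood at 4378, 139, 558, 255 and 235 CPM in time order, and in bin 5 at 5395, 222, 652, 374 and 223. Per 1000000 UMIs other than Alb it stood at 16099.7, 622, 2260.2, 1146 and 939.5 in bin 1 and at 11443, 536, 1278, 803 and 443 in bin 5, the lower end each time. The end-to-end log2 ratio was 0.30, 0.68, 0.23, 0.55 and -0.08 in CPM, below the panel median in all 5 libraries. At 8 h its interval (0.24 to 1.11) held that median (0.71), so no lean was shown there. Without Alb it was -0.49 (-0.55 to -0.44), -0.22 (-0.65 to 0.22), -0.82 (-0.99 to -0.65), -0.51 (-0.68 to -0.34) and -1.08 (-1.28 to -0.89). Without Alb and the axis pair it was nearer 0, at -0.34 (-0.39 to -0.29), -0.04 (-0.47 to 0.40), -0.55 (-0.72 to -0.38), -0.15 (-0.32 to 0.02) and -0.59 (-0.78 to -0.39), so that the intervals after 8 and 24 h held 0, and again below the panel median in each library. This lean was not particular to Srebf1. Without Alb at 0 h, Acaca was at -0.57, Acly at -0.43, Fasn at -0.29 and Elovl6 at -0.19, all below the panel median of -0.12. Elovl6 at 8 h (0.53) and Fasn at 24 h (-0.18) lay above the medians of those libraries. The low Srebf1 of the fasted libraries was found at both ends: against the same bin at 0 h it was -4.98 at the Cyp2f2 end and -4.60 at the Cyp2e1 end at 8 h, and -4.22 and -4.60 at 30 h.

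Mlxipl and Nr1h3 lay further toward the Cyp2e1 end than Srebf1. Against the panel, Mlxipl lay at the median in the fed library under all 3 denominators. Its intervals at 8 and 16 h also held the median under all 3, and those at 24 and 30 h lay above it. Nr1h3 lay at the median at 8 h, and its intervals lay above it at 0, 16, 24 and 30 h. Mlxipl stood at 1839, 1182, 739, 533 and 537 CPM in bin 1 and at 2928, 2096, 1446, 1072 and 925 in bin 5, log2 ratios of 0.67, 0.83, 0.97, 1.01 and 0.78. Without Alb its ratios were -0.12, -0.07, -0.08, -0.05 and -0.22, and the intervals at 8, 16 and 24 h held 0. Without Alb and the axis pair they were 0.03 (-0.05 to 0.10), 0.11 (-0.03 to 0.25), 0.20 (0.07 to 0.32), 0.31 (0.20 to 0.42) and 0.27 (0.17 to 0.38), so the sign of the Mlxipl gradient rests on the denominator. Nr1h3 stood at 720.4, 574, 592, 551 and 726 CPM in bin 1 and at 1386, 939, 1356, 1048 and 1223 in bin 5, log2 ratios of 0.94, 0.71, 1.20, 0.93 and 0.75. Without Alb they were 0.15 (0.03 to 0.27), -0.18 (-0.39 to 0.03), 0.15 (0.009 to 0.29), -0.13 (-0.24 to -0.03) and -0.25 (-0.35 to -0.16). Without Alb and the axis pair they were 0.30 (0.19 to 0.42), -0.004 (-0.21 to 0.21), 0.42 (0.28 to 0.56), 0.23 (0.12 to 0.33) and 0.24 (0.15 to 0.34). The Nr1h3 gradient in CPM lay mostly between bins 4 and 5 in the fed library (882 and 1386), and between bins 3 and 5 after 16 h (611 and 1356). In the fed library the Alb share went from 70.0% to 52.9% over the same bins 4 and 5, and per 1000000 UMIs other than Alb the Nr1h3 levels there were 2939.96 and 2940.7.

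**Figure D4:**
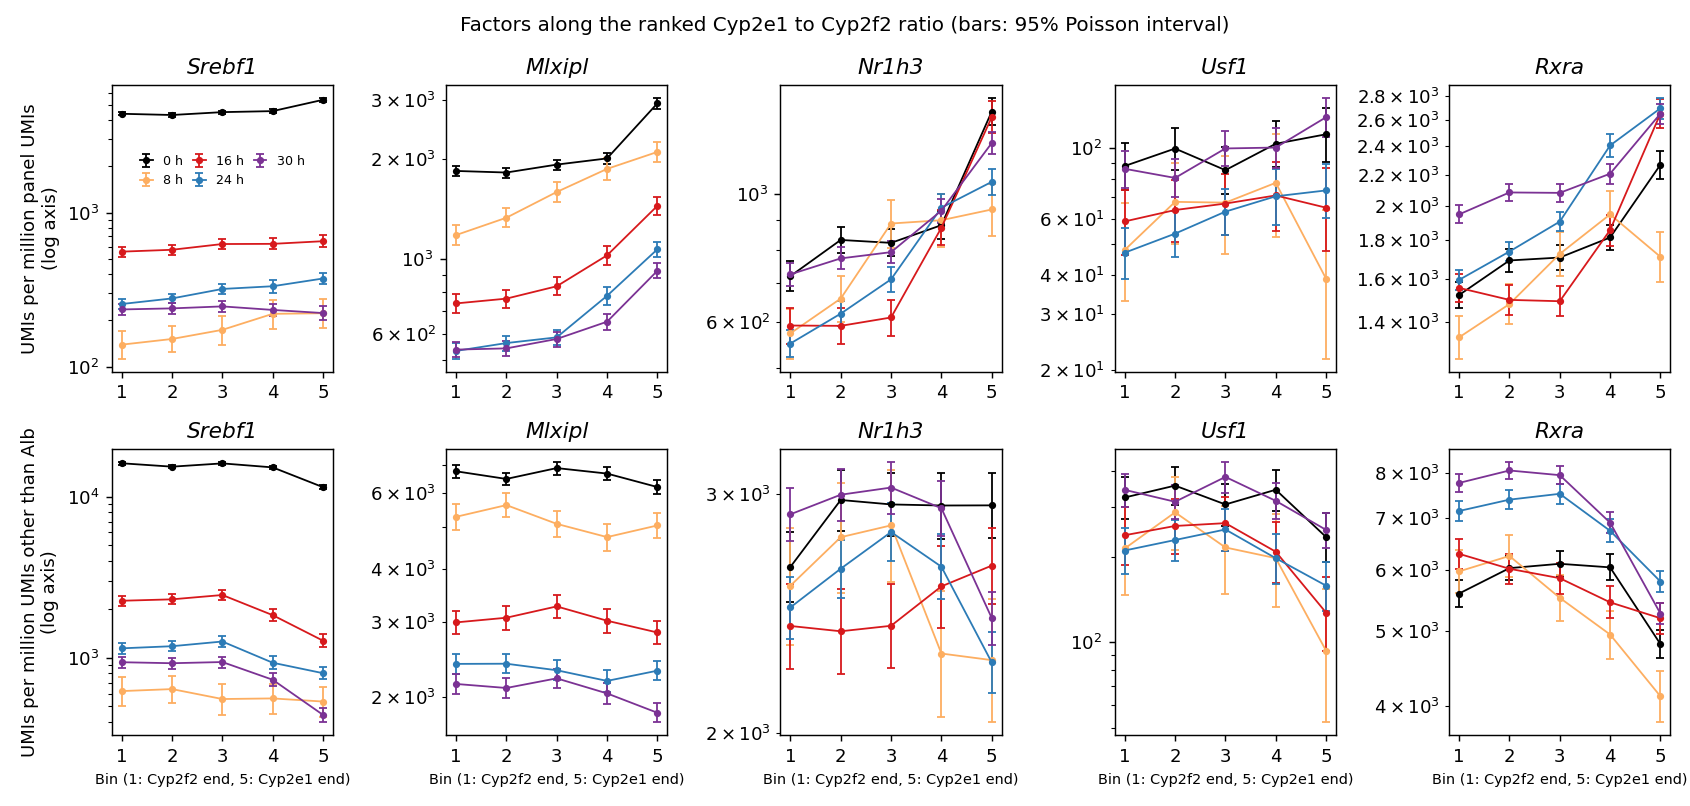
Level of each factor (log axes) in 5 bins of barcodes from the Cyp2f2 end (1) to the Cyp2e1 end (5), 1 line a library, per 1000000 panel UMIs (top) and per 1000000 UMIs other than Alb (bottom), bars showing the 95% Poisson interval. With Alb in the denominator Mlxipl, Nr1h3 and Rxra are higher in bin 5 than in bin 1 in every library. With Alb alone left out, Srebf1, Mlxipl, Usf1 and Rxra are lower there. Mlxipl, Rxra and Usf1 do not keep that position in every library once the axis pair is left out too. With Alb alone left out, the end-to-end intervals of Mlxipl at 8, 16 and 24 h and of Srebf1 at 8 h held 0.

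Rxra and Usf1 lay at or below the panel median in all 5 libraries. Rxra stood at 1521, 1336, 1555, 1593 and 1948 CPM in bin 1 and at 2268, 1710.1, 2653, 2697 and 2653 in bin 5. Its log2 ratios were 0.58, 0.36, 0.77, 0.76 and 0.45, and without Alb -0.22, -0.54, -0.28, -0.30 and -0.56. Without Alb and the axis pair they were -0.07, -0.36, -0.002, 0.06 and -0.06. The intervals at 8 h (-0.50 to -0.21) and 30 h (-0.12 to -0.003) lay below 0, and those at 0, 16 and 24 h held 0. Usf1 was sparse, with 15 UMIs in bin 5 at 8 h, and its side rested on the denominator. Its log2 ratios were 0.33 (-0.05 to 0.71), -0.30 (-1.29 to 0.62), 0.14 (-0.42 to 0.69), 0.65 (0.26 to 1.04) and 0.54 (0.26 to 0.82) in CPM. Without Alb they were -0.46 (-0.84 to -0.08), -1.19 (-2.18 to -0.27), -0.90 (-1.47 to -0.36), -0.41 (-0.80 to -0.02) and -0.47 (-0.75 to -0.18), with every interval below 0. With the axis pair left out as well they were -0.31, -1.02, -0.63, -0.05 and 0.03. Of these, only the intervals at 8 h (-2.00 to -0.10) and 16 h (-1.19 to -0.08) lay clear of 0. Only the intervals at 24 and 30 h lay clear of 0 in CPM.

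Few factors differed over 2-fold between the ends, and the denominator set which. In CPM the count was 0 of 5 at 0, 8 and 30 h, beside 22%, 36.2% and 24% of the panel genes tested. It was 1 at 16 h (Nr1h3, beside 42.9%) and 1 at 24 h (Mlxipl, beside 32.7%). Without Alb it was 0 at 0, 16 and 24 h, beside 22%, 28.6% and 24.5%. It was 1 at 30 h (Srebf1, beside 28%), and at 8 h it was Usf1, with under the 100 UMIs asked of tested genes (beside 19.1%). Without Alb and the axis pair Usf1 at 8 h was again the 1 member past 2-fold (beside 17%), and the count was 0 in the other libraries, beside 24%, 24.5%, 22.4% and 20%, so Srebf1 at 30 h was no longer among them.

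A contrast between 2 factors in the same bins is free of any denominator. The end-to-end ratio of Srebf1 minus that of Nr1h3 was -0.64 (-0.77 to -0.52), -0.03 (-0.50 to 0.43), -0.97 (-1.19 to -0.75), -0.38 (-0.57 to -0.18) and -0.83 (-1.04 to -0.62) in time order. Apart from the shallow 8 h library, where the end bins held 96 and 86 Srebf1 UMIs, Srebf1 thus lay nearer the Cyp2f2 end than Nr1h3 beyond counting error. Srebf1 minus Mlxipl was -0.37, -0.15, -0.74, -0.46 and -0.86, again with only the 8 h interval crossing 0 (-0.59 to 0.29). Nr1h3 minus Rxra was 0.37, 0.35, 0.42, 0.17 and 0.31, above 0 beyond counting error in all 5 libraries. Mlxipl minus Nr1h3 was below 0 beyond counting error in the fed library, -0.27 (-0.41 to -0.14), and after 16 h, -0.23 (-0.41 to -0.04), and its interval held 0 in the other 3. Depth fell along the axis too, with a median of 1148 UMIs a barcode in bin 1 and 654 in bin 5 at 0 h, and its part in the zone values was not tested.

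**Figure D5:**
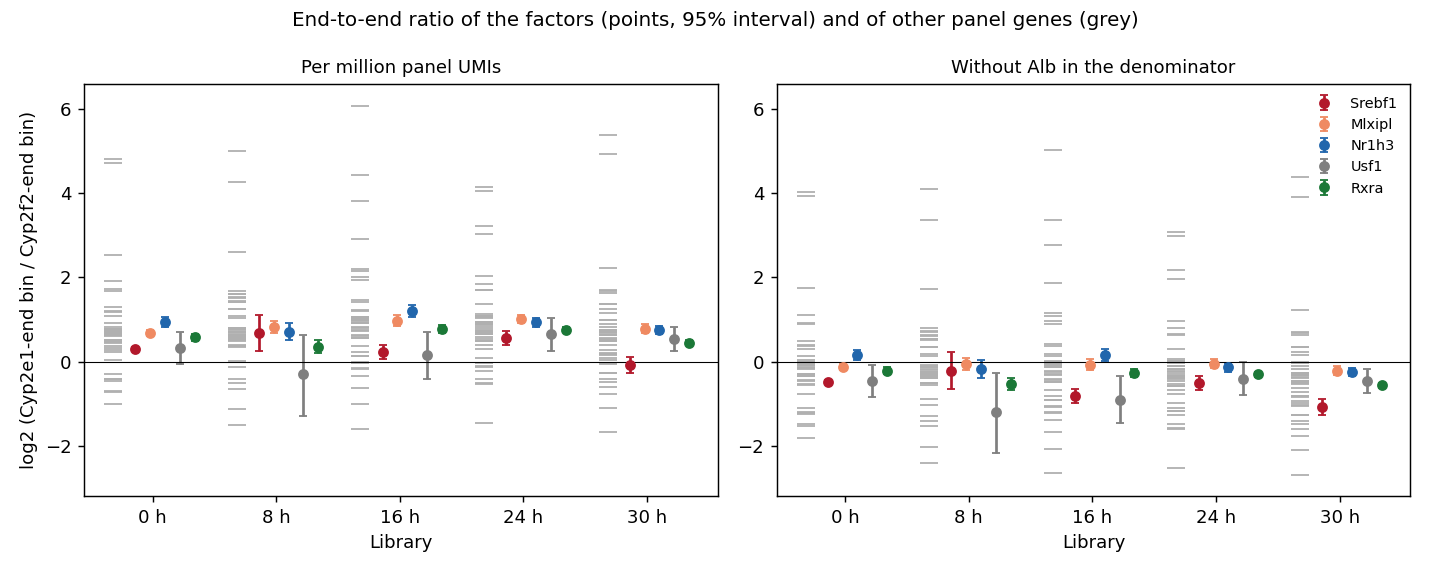
Log2 ratio of the Cyp2e1-end bin over the Cyp2f2-end bin in each library, with all panel UMIs (left) and without Alb (right) in the denominator; points are the factors with 95% intervals and grey ticks the other panel genes apart from the axis pair. Srebf1 lies below Mlxipl and Nr1h3 at 0, 16, 24 and 30 h in both panels.

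Against the fed library, the position of Srebf1 along the axis differed at 30 h under all 3 denominators: the end-to-end ratio minus that at 0 h was -0.38 in CPM (-0.58 to -0.18), -0.59 without Alb (-0.79 to -0.40) and -0.25 without Alb and the axis pair (-0.44 to -0.05). At 8 h the same differences were 0.38, 0.28 and 0.30, with intervals that held 0. At 16 h they were -0.08, -0.33 and -0.21, the first with an interval that held 0. At 24 h, the matched clock hour, the sign depended on the denominator, with 0.25, -0.02 and 0.19. For Mlxipl the differences from 0 h, in time order, were 0.15, 0.30, 0.34 and 0.11 in CPM, where the intervals at 16 and 24 h lay clear of 0. Without Alb they were 0.06, 0.04, 0.07 and -0.10, with intervals that all held 0. With the axis pair left out as well they were 0.08, 0.17, 0.28 and 0.25, and the interval at 8 h held 0. Mlxipl was lower than in the fed library at both ends under all 3: at 24 h the log2 ratio to the same bin at 0 h was -1.79 at the Cyp2f2 end and -1.45 at the Cyp2e1 end in CPM, -1.50 and -1.43 without Alb, and -1.50 and -1.22 without Alb and the axis pair.

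Some barcodes carried RNA of other liver cells. In all, 180 barcodes had 3 or more UMIs of the 6 markers, 36, 105, 4, 17 and 18 of them in time order. Nr1h3, which macrophages are known to express too, stood at 3987, 4948, 2523, 2185 and 1802 CPM in them, in time order, and at 877, 731, 712, 717 and 854 in the other barcodes. The Poisson intervals of the 2 kinds of barcode were apart except at 16 h, where the former held 3 Nr1h3 UMIs. Over all libraries, Alb took 70.6% of the UMIs in the other barcodes and 59.7% in these 180. Other genes are thereby pushed up in CPM in the 180. Nr1h3 was not the only factor higher in them. At 8 h Rxra stood at 5032 CPM in them (3840 to 6478) and at 1547 in the others. Usf1 stood at 755 (345 to 1433, from 9 UMIs) and 62.3, and Srebf1 at 503 (185 to 1095, from 6 UMIs) and 166. Mlxipl stood at 2097 there, with an interval (1357 to 3095) that held the 1604 of the others. At 30 h the Rxra interval in them (1214 to 2770) held the 2145 CPM of the others. Srebf1 in the fed library stood at 4466 CPM in them (3562 to 5529) and at 4539 in the others. Without these barcodes the log2 ratios of Nr1h3 to 0 h were -0.26, -0.30, -0.29 and -0.04, and those of Srebf1 -4.78, -2.90, -3.92 and -4.26, close to the values over all barcodes.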

How the data were processed

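Hepatocyte RNA was captured with a 10x Chromium 3′ kit (v3) and enriched for the 64-gene panel by hybridization, per the labels' protocols. The authors deposited raw UMI counts, not normalized, for 64 genes and 47473 barcodes, with a deposited barcode table that gives each barcode's library. The submitters' processing notes name Cell Ranger 6.0.1 and mm10. Barcode calling, the annotation and depth equalisation between libraries are not given in the sources used here. No barcode was dropped and no doublet caller was run on so small a panel.

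UMIs were summed per library (Python 3.11.15, numpy 2.4.6, scipy 1.17.1, pandas 2.3.3, matplotlib 3.10.9). CPM values had exact Poisson intervals, log2 ratios exact conditional binomial intervals, and differences of log2 ratios normal intervals from the 4 counts, all at 95%. Called means over 2-fold among genes with at least 100 UMIs in the 2 libraries or bins together. The zone ratio used a pseudocount of 0.5. The named genes were the factors, the panel genes on the pathway and marker lists, and the 3 nearest patterns of each factor. The scripts were tested on simulated data. Members, lists and rules were chosen with earlier results of these data known. Promoter and gene positions came from RefSeq and GENCODE M21. Some listed genes are not reported here. Alternatives covered the denominator, barcode filters, thinning, thresholds and the axis.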

Additional observations from a re-analysis of the deposited data

Results flagged for a closer look

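The end-to-end zone ratio of Nr1h3 without Alb in the denominator had opposite signs in different libraries, with counting intervals clear of 0: 0.15 at 0 h, against -0.13 at 24 h and -0.25 at 30 h. With 1 library a time, the difference between libraries was not tested against replicate spread. In CPM the ratio was above 0 in all 5 libraries. With Cyp2e1 and Cyp2f2 also left out of the denominator the same 3 ratios were 0.30 (0.19 to 0.42), 0.23 (0.12 to 0.33) and 0.24 (0.15 to 0.34), all of 1 sign, so the opposite signs are seen under 1 of these 3 denominators.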

How the results depend on the processing

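Of the values by time, Srebf1 and Mlxipl kept a ratio below 0 against 0 h under all 8 alternatives at each of the 4 times. Small ratios changed sign under 1 of 8 alternatives (Nr1h3 at 30 h and Rxra at 16 h) or 2 of 8 (Usf1 at 30 h). Counted per barcode, which follows library depth, 5 factors were over 2-fold lower at 8 h, beside 71.4% of the panel genes, and 0 were level, as was none of the 52 panel genes. Thinned to 200 UMIs, 2 were lower at 8 h (panel 19.6%). With a tolerance of 0.3 on the log2 scale 1 factor was level (panel 9.62%). Leaving out the barcodes with other-cell markers, an alternative chosen after seeing the data, changed none of the counts by time. The number over 2-fold between the end bins became 1 at 0 h with 10 bins. At 8 h it became 1 per barcode, without Alb, and without Alb and the axis pair. At 16 h it became 0 in these 3 settings and with 3 bins, and 2 with 10 bins or at least 20 UMIs of the pair. At 24 h it became 0 in these 3 settings, with 3 bins and with barcodes of 300 or more UMIs, and at 30 h 1 without Alb. The Mlxipl ratio at 24 h reversed in sign to -0.053 without Alb, with an interval that held 0 (-0.16 to 0.05). In all, 98 recomputed counts stayed within 1.5 times and 20 did not. The single values moved more: 330 recomputed ratios stayed inside the counting interval of the reported value, 189 moved outside it and 1 reversed. No paired analysis was possible because each time point had 1 library. Depth limits Usf1 most, and the 8 h library, where 57.9% of barcodes had too few UMIs for the axis; the cause of each change was not tested.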

Other observations

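Thinned to 500 UMIs a barcode, with shallower barcodes left out (1132, 9125, 3007, 1293 and 1304 in time order), Srebf1 averaged 2.28 UMIs a barcode in the fed library and 0.0852, 0.302, 0.143 and 0.117 in the fasted ones. Its variance over barcodes was 1.24, 1.19, 1.16, 1.05 and 1.03 times the mean in time order. Poisson sampling alone gives a variance equal to the mean. The mean differed between these libraries too, so the ratios are not a comparison of the spread between cells. The same ratio reached 1.30 for Rxra at 16 h. Rank correlations across thinned barcodes of Srebf1, Mlxipl or Rxra with lipogenic genes, given only where both genes averaged at least 0.5 UMI, ran from -0.04 (Rxra with Elovl6 at 0 h) to 0.21 (Rxra with Scd1 over 7265 barcodes at 24 h). Barcodes of a library share its depth and composition, and correlations this weak in sparse counts are no finding.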
